A study of Rattus norvegicus with 176 samples.

Results

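Livers of rats given clofibric acid (CA) for 12 months were set against livers of control rats of the same time label. Of the 176 liver sections in the series, 9 entered this comparison, 1 section from each of 4 CA rats (4138, 4139, 4140 and 4141) and 5 control rats (4028, 4029, 4030, 4031 and 4037). The sections were chosen by their source label (Clo:12m or Ctrl:12m) and by a title with no TUM or peri tag. CA rat 4137 met the same labels and was left out because its untagged section resembled tumour on its array. All animals were F344 rats, an inbred laboratory strain. The titles name a dose of 5000 ppm CA, also for control rats, so the source label and not the dose separated the groups. Age, sex, route, feeding and the hour of sampling were not given in the sources used here. For comparison, 5 DEN-CA and 5 DEN rats of 12m were used (DEN commonly stands for diethylnitrosamine, which causes liver cancer in rats), and 25 CA and 25 control rats at 5 other times, labelled 5j, 1m, 3m, 9m and 18m.

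Clofibric acid is a fibrate, the active form of a lipid-lowering drug. Fibrates bind PPARalpha, a nuclear receptor that pairs with RXR on DNA and switches on genes for fatty acid uptake, activation and oxidation in mitochondria and peroxisomes. In rat and mouse liver, long exposure also enlarges the peroxisome population and leads to liver tumours. Lipogenesis runs the other way, from acetyl-CoA to fatty acids, and is driven in the liver by SREBP1, LXR and insulin. ATF4 is the transcription factor of the amino acid response, which raises amino acid synthesis and transport when amino acids are short or the endoplasmic reticulum is stressed.

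Each section gave 1 Affymetrix array. The deposited intensity is a linear brightness per probe set, and each array was multiplied so that its median equalled 99.35, so levels below are scaled signals relative to the median probe set. The array medians before scaling were 81.8, 92.3, 96.5 and 42.0 in CA rats 4138 to 4141, against 62.8, 127.7, 107.05, 113.9 and 87.85 in control rats 4028, 4029, 4030, 4031 and 4037. The array of CA rat 4141 was the dimmest of the 9. Without scaling, the median gene shifted by -0.30 on the log2 scale, so higher and lower below mean relative to the median probe set. Values are listed in the rat order just given, log2 fold changes are CA over control ± their standard error, and SD and n refer to rats. Fold changes are on the scale of log2(signal + 25) and understate the change of dim genes.

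The sections differed in likeness. Pearson correlations over log2 signals ran from 0.964 to 0.973 among the 4 CA rats, from 0.961 to 0.978 among the 5 controls, and from 0.939 to 0.958 between the groups. The untagged section of rat 4137 correlated at 0.917 to 0.940 with the 4 CA rats and at 0.970 with the TUM section of rat 4141. The section of rat 4137 labelled TUM correlated at 0.984 with its peri section and at 0.960 to 0.979 with the 4 CA rats. Cdkn2a, which encodes the cell cycle inhibitor p16 and is low in normal liver, was at 75.5 in the untagged section of rat 4137 and 49.8 in the TUM section of rat 4141. It was at 2.60 or lower in the 4 CA rats, at 6.28 or lower in the 5 controls and at 5.69 in the TUM section of rat 4137. For rat 4137 the tag thus did not sit on the section that resembled the TUM section of rat 4141.

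**Figure D1:**
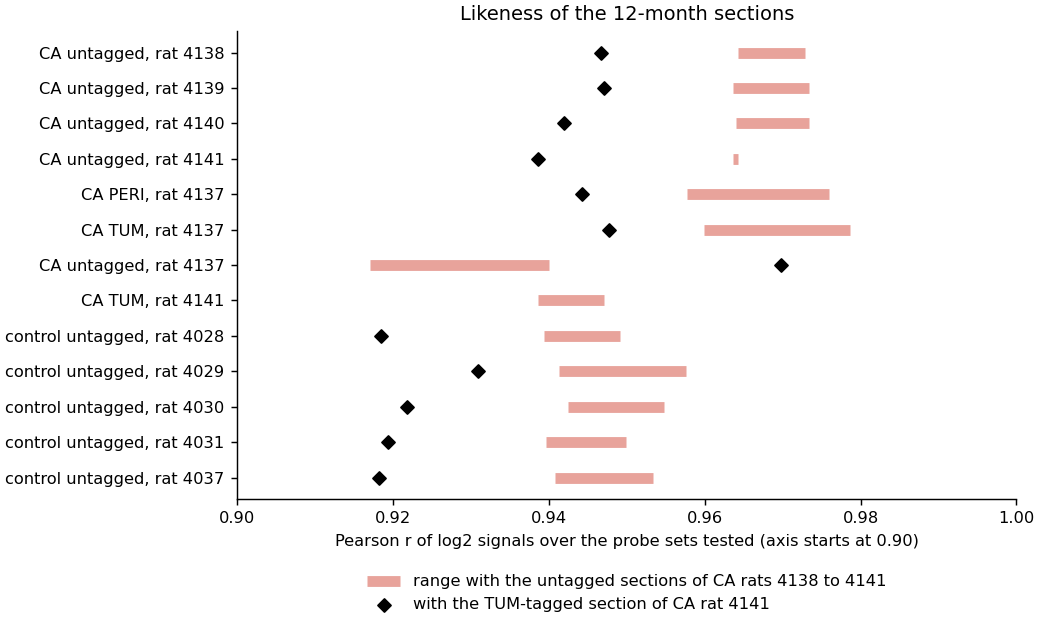
Likeness of the 12-month sections as Pearson r of log2 signals over the probe sets tested; the axis starts at 0.90. Red bars span the correlations of each section with the untagged sections of CA rats 4138 to 4141, and black diamonds mark its correlation with the TUM section of CA rat 4141. The untagged section of rat 4137 lies at 0.917 to 0.940 with the CA rats and at 0.970 with that TUM section.

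Hepatocyte markers were high in both groups, and the 4 on the array summed to 46851 to 85056 in CA livers, against 40545 to 69606 in control livers, with 0 of 4 past the threshold. Clec4f and C1qa, markers of Kupffer cells, summed to 1152 to 1912 in CA livers, against 1622 to 2843 in control livers. The 4 endothelial markers summed to 877 to 1423 in CA livers, against 1358 to 1932 in control livers, and the 5 stellate cell markers to 741 to 985 in CA livers, against 821 to 1220.4 in control livers. No marker of these 3 cell types passed, while 8.35% of all genes did. In sections of whole liver, fewer cells of a type and less RNA per cell cannot be told apart.

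At 12 months 729 of 8733 genes (8.35%) passed an adjusted p of 0.05, 427 of them higher in CA livers (4.89%) and 302 lower (3.46%). The changes were large for part of them: 88 genes were at least 2-fold higher and 58 at least 2-fold lower. Groups did not overlap for 1034 genes (11.8%), with CA higher for 6.71% and lower for 5.13% of genes, 577 of them among the called genes. Counted as probe sets, 982 of 12379 passed (7.93%), 555 higher (4.48%) and 427 lower (3.45%). The scaling to a common median sets the median gene near 0 (0.0071 on the log2 scale, -0.30 without scaling), while the 874 brightest genes stood at 0.090 (-0.0053 after quantile normalization). Of the 729 called genes, 467 (without CA rat 4141) to 601 (without control rat 4029) kept the call when 1 rat was left out. The call held for 309 genes whichever rat was left out. With no scaling 235 probe sets passed, 47 higher and 188 lower, against 555 and 427 with scaling. With rat 4137 included 1444 passed, 816 higher and 628 lower.

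Scd2, a stearoyl-CoA desaturase that makes monounsaturated fatty acids, had signals of 874, 1925, 1128 and 731 in CA livers, against 30.7, 30.5, 35.2, 41.8 and 17.2 in control livers. Every CA rat stood far above every control, with rat 4139 the highest (log2 fold change 4.33 ± 0.33, adjusted p = 4.3e-22, or 20.1-fold higher on that scale). Another probe set of Scd2 rose by 2.45 on the log2 scale. Hdc, histidine decarboxylase, which makes histamine, measured 1236, 1382, 1249.8 and 875 in CA livers, against 58.5, 89.00, 101, 52.7 and 112 in control livers. The groups were separate by a wide gap (log2 fold change 3.51 ± 0.35, adjusted p = 5.0e-15). In the untagged section of rat 4137 Hdc was only 135, near the control range.

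Aqp3, a channel for water and glycerol, was 208, 242, 183 and 105 in CA livers, against 4.75, 1.94, 6.50, 2.18 and 3.28 in control livers. The control signals lay under the offset of 25, which holds the fitted change down (log2 fold change 2.82 ± 0.25, adjusted p = 2.7e-17). Vnn1, a pantetheinase that releases cysteamine and a classical PPARalpha target, was 1235, 1216, 1247 and 884 in CA livers, against 195, 486, 105, 119 and 77.9 in control livers. Control rat 4029 stood above the other controls, yet below all CA rats (log2 fold change 2.65 ± 0.38, adjusted p = 5.3e-08). Acot1, an acyl-CoA thioesterase with close relatives in the genome, had 287, 329, 188 and 109 in CA livers, against 26.6, 24.2, 23.5, 9.07 and 19.3 in control livers. CA rat 4141 was the lowest of its group and still above every control (log2 fold change 2.39 ± 0.34, adjusted p = 3.1e-08). Rat 4137, left out, had an Acot1 signal of 30.3.

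Genes outside lipid metabolism also led the list of higher genes. Cela1, an elastase best known from the pancreas, averaged 766 ± 108 in CA livers and 116 ± 26.7 in control livers (SD, n = 4 and 5; log2 fold change 2.50 ± 0.34, adjusted p = 8.5e-09). It was the 1 called gene of 11 acinar markers (9.09%, against 8.35% of all genes). Among the others, Prss1 ranged over 53.2 to 84.8 in CA livers, against 28.8 to 64.2 in control livers, and Cpb1 over 75.7 to 115.7, against 52.6 to 117.0. Cpa1 ranged over 5.44 to 21.4 in CA livers, against 2.69 to 23.5 in control livers, and Amy2a3 over 2.78 to 13.5, against 3.48 to 23.3. All 4 overlapped between the groups. Nipal2, of a family of magnesium transporters, averaged 329 ± 17.9 in CA livers and 49.5 ± 13.1 in control livers (log2 fold change 2.26 ± 0.15, adjusted p = 5.3e-27). Rtn4, a reticulon that shapes tubules of the endoplasmic reticulum, rose by 2.25 ± 0.28, adjusted p = 1.9e-10. Chrna2, a nicotinic acetylcholine receptor subunit, rose by 2.67 ± 0.31, adjusted p = 1.0e-11, Zfp354a, a zinc finger protein of liver and kidney, by 2.88 ± 0.57, adjusted p = 1.3e-04, and Cap2, an actin-binding protein, by 2.03 ± 0.31, adjusted p = 1.7e-07. Another probe set of Cap2 stood at 0.65 and did not pass. All of these genes passed whichever rat was left out.

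**Figure D2:**
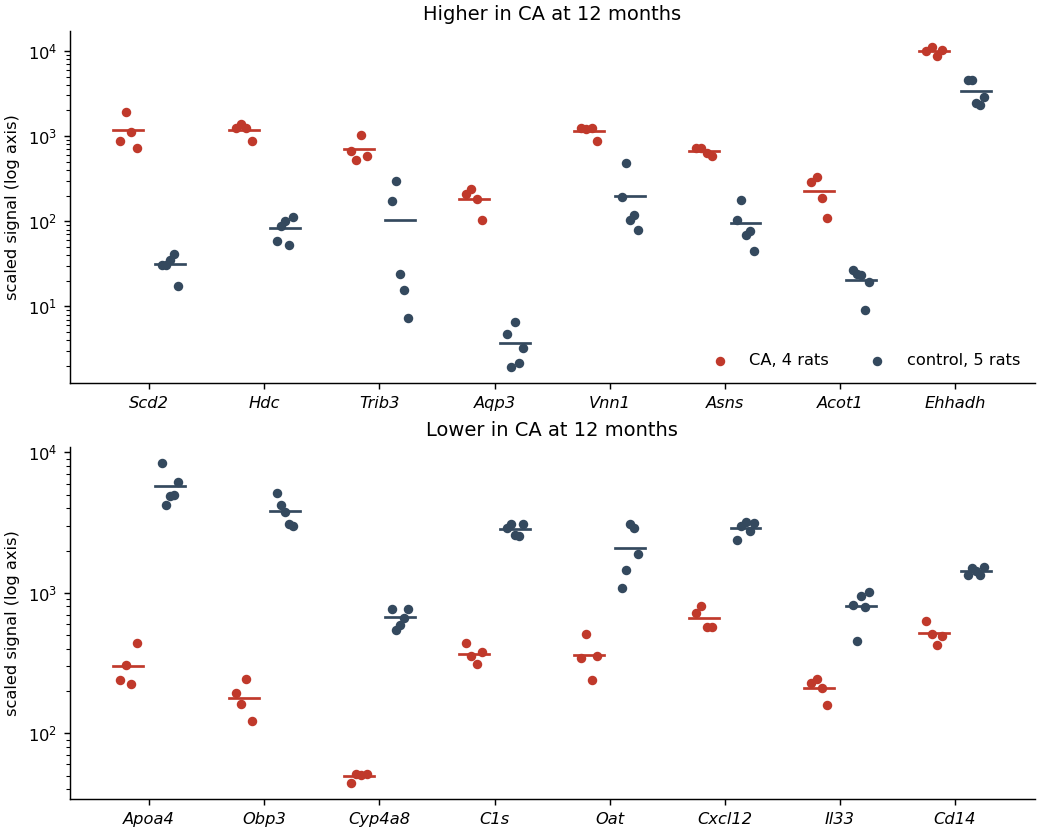
Scaled signals of 16 genes in each liver at 12 months, on a log axis, with CA rats (4, red) left of control rats (5, dark) for each gene and a line at each group mean. The upper panel holds genes higher in CA livers and the lower panel genes lower in CA livers; for every gene shown the points of both groups do not overlap.

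Among the genes that fell, Apoa4, an apolipoprotein of triglyceride-rich particles and HDL, had 239, 306, 225 and 437 in CA livers, against 8376, 4253, 4923, 4992 and 6174 in control livers. That is 17.7-fold lower, with no overlap (log2 fold change -4.14 ± 0.23, adjusted p = 8.3e-33). Obp3, a lipocalin of the alpha2u-globulin type that belongs to a family of near-identical genes, measured 193, 161, 242 and 122 in CA livers, against 5167, 4201, 3746, 3105 and 3000.3 in control livers. All CA livers lay below all control livers (log2 fold change -4.25 ± 0.70, adjusted p = 1.9e-06), and another probe set fell by 3.61, although relatives of the family may share its probes. Cyp4a8, a fatty acid hydroxylase, had 44.3, 51.2, 50.4 and 51.3 in CA livers, against 771, 548, 595, 658 and 774 in control livers. This was 9.27-fold lower (log2 fold change -3.21 ± 0.22, adjusted p = 2.5e-25), against the direction of its relative Cyp4a1 below.

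C1s, a serine protease of the first complement component, had 438, 356, 311 and 376 in CA livers, against 2911, 3114, 2591, 2527 and 3068 in control livers. C1r, its partner protease, was 444, 372, 336 and 516 in CA livers, against 1714, 1917, 1378, 1136 and 1393 in control livers. Both fell without overlap (C1s -2.86 ± 0.22 and C1r -1.79 ± 0.21 on the log2 scale, adjusted p = 4.0e-21 and 1.0e-11). Oat, ornithine aminotransferase, an enzyme around the central vein, measured 342, 514, 239 and 355 in CA livers, against 1090.3, 1452, 3116, 2900.4 and 1881 in control livers. It was 5.22-fold lower (log2 fold change -2.38 ± 0.34, adjusted p = 2.5e-08). Abhd2, a lipid hydrolase, fell by 2.38 on the log2 scale (464 ± 23.5 in CA livers and 2549.7 ± 363 in control livers, SD, n = 4 and 5), and Inmt, an N-methyltransferase of small amines, fell by 2.22 (226 ± 21.5 in CA livers and 1169.9 ± 281 in control livers). Nrep, a small neuronal regeneration protein, fell by 2.12 (78.2 ± 15.98 in CA livers and 469 ± 234 in control livers), and Hsd17b2, which oxidizes oestradiol and testosterone, fell by 1.75 (219.6 ± 27.9 in CA livers and 848 ± 335 in control livers). All of the genes named as fallen here passed whichever rat was left out.

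The amino acid response was among the lists with the most higher genes. Of its 25 tested genes, 11 were higher (44%, against 4.89% of all genes), 0 were lower and 14 did not pass, and the median log2 fold change was 0.57 (0.35 without scaling and 0.61 after quantile normalization). Over all genes the median was 0.0071. The list median was 0.73 with an offset of 6 and 0.39 with an offset of 99, with 11 higher genes in both. Per rat, the list median lay 0.52 to 0.86 above the mean of the controls in the 4 CA rats, against -0.25 to 0.29 in the 5 control rats, with control rat 4029 the highest of these. With 1 rat left out, 9 of the 11 always passed, and the fewest calls, 9, came without CA rat 4139 or 4140.

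Atf4 itself had 2962, 2635, 2338 and 2853 in CA livers, against 1371, 1235, 1129, 1263 and 971 in control livers. The groups did not overlap (log2 fold change 1.16 ± 0.17, adjusted p = 9.0e-08). Asns, asparagine synthetase, was 735, 721, 634 and 578 in CA livers, against 104, 179, 69.05, 77.5 and 44.8 in control livers. It was 6.15-fold higher (log2 fold change 2.62 ± 0.26, adjusted p = 1.0e-14). Trib3, a pseudokinase that ATF4 and CHOP switch on, measured 669, 522, 1040.2 and 590.4 in CA livers, against 173, 294, 24.3, 15.7 and 7.35 in control livers. Controls spread widely, with rats 4028 and 4029 above the other 3, but none reached the CA range (log2 fold change 3.08 ± 0.50, adjusted p = 1.1e-06).

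Phgdh, the first enzyme of serine synthesis, had 453, 391, 395 and 353 in CA livers, against 49.2, 209.9, 13.1, 68.7 and 45.3 in control livers. Rat 4029 was again the highest control (log2 fold change 2.31 ± 0.38, adjusted p = 2.2e-06). Psat1, the next enzyme, was 218, 296, 279 and 175 in CA livers, against 55.5, 250.3, 56.4, 44.05 and 57.8 in control livers. Control rat 4029 lay within the CA range, so the groups overlapped although the gene passed (log2 fold change 1.38 ± 0.34, adjusted p = 0.0027). Slc3a2, the heavy chain of amino acid transporters, rose by 1.39 ± 0.21, adjusted p = 2.0e-07, Nupr1, a stress-induced chromatin protein, by 1.97 ± 0.26, adjusted p = 1.7e-09, Ddit4, an inhibitor of mTORC1, by 1.46 ± 0.32, adjusted p = 6.1e-04, and Ddit3, which encodes CHOP, by 0.78 ± 0.14, adjusted p = 2.6e-05. Pck2, the mitochondrial PEP carboxykinase, rose by 1.16 ± 0.35, but lost the call when single rats were left out (adjusted p up to 0.14 without rat 4139, 4140, 4141 or 4037), and another probe set stood at -0.12. Mthfd2, of mitochondrial folate metabolism, rose by 1.10 ± 0.34 and lost it likewise (adjusted p up to 0.093 without rat 4138, 4139, 4140, 4028, 4030 or 4031). Genes of the list that did not pass included Chac1 (0.67), Atf3 (0.57) and Gdf15 (-0.036).

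Of 25 tested chaperone and unfolded protein response genes 2 were higher and 0 lower (8%, against 8.35% of all genes), and the median log2 fold change was -0.14 (-0.51 without scaling and -0.18 after quantile normalization). Hspa5, the main chaperone of the unfolded protein response, stood at -0.034 and did not pass. Herpud1, which takes part in degrading misfolded proteins, rose by 1.12 ± 0.31, adjusted p = 0.0095, and Selenos, a selenoprotein of the same machinery, by 0.64 ± 0.14, adjusted p = 6.2e-04.

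The DNA in front of these genes was read from RefSeq (rat build GRCr8), as 300 bases per gene, 250 before the start and 50 after it. The letters TGATGNAAN, a form of the composite C/EBP-ATF element, were searched on both strands. They occurred in 3.97% of 33469 promoters, in 2% of the 7302 promoters of tested genes, in 4.01% of 349 promoters of genes higher in CA livers and in 1.92% of 261 promoters of lower genes. Of the 11 higher genes of the amino acid response, 3 held it (Nupr1, Trib3 and Pck2). Of the 23 promoters found for the 25 tested genes of that list, called or not, 5 held it (21.7%). It also stood before Fgf21 and Herpud1, which were higher as well. In all, 14 higher genes and 5 lower genes held the match. The 5 stretches shown are from higher genes of the amino acid response and chaperone lists and from Fgf21. Other higher genes with the match, among them Cap2, Tat and Hspa9, and lower genes such as Cyp2f4 and Ugp2 are not shown. The 9 matching letters are in capitals. Each match shown is on the other strand, so it reads in reverse complement.
Trib3, chr3:161275534-161275585, minus strand: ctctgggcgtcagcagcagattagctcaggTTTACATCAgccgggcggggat
Nupr1, chr1:190645919-190645987, minus strand: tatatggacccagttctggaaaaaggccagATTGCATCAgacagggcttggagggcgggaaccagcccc
Pck2, chr15:32997603-32997651, plus strand: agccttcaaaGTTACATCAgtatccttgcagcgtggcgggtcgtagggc
Fgf21, chr1:105221482-105221550, minus strand: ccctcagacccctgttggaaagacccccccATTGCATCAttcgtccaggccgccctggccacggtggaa
Herpud1, chr19:10614854-10614922, minus strand: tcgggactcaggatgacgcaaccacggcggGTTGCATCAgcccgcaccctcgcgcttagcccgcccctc
The same search found the DR1 element, a direct repeat bound by PPARalpha with RXR, in 0.0538% of all promoters, in 0 of the 349 of higher and in 0 of the 261 of lower genes. TCACNCCAC, a form of the sterol element, was in 1.12% of all promoters, in 1.15% of those of higher and in 0.383% of those of lower genes. A match is a run of letters and not a measured binding site.

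Of 22 tested genes of mitochondrial fatty acid oxidation 8 were higher and 1 lower (40.9%, against 8.35% of all genes), and 13 did not pass. The median log2 fold change was 0.29 (-0.082 without scaling and 0.20 after quantile normalization). Cpt1b, the muscle-type carnitine palmitoyltransferase, had 368, 458, 443 and 334 in CA livers, against 84.3, 109, 137, 115 and 101 in control livers. It was 3.17-fold higher without overlap (log2 fold change 1.67 ± 0.22, adjusted p = 1.5e-09). Cpt1a, the liver form of the same enzyme, had 2011, 2819.8, 1786 and 1273 in CA livers, against 3455, 3654, 3529, 2445 and 3589.7 in control livers. It fell, although CA rat 4139 lay above control rat 4031 (log2 fold change -0.79 ± 0.15, adjusted p = 7.2e-05), and another probe set fell by 1.06. Levels of different probe sets cannot be compared with each other, so which form was more abundant is not given by these values.

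Eci1, an enoyl-CoA isomerase, measured 8839, 8578, 7326 and 6859.6 in CA livers, against 4789, 5497, 4134, 3521 and 4249 in control livers. Decr1, a dienoyl-CoA reductase, measured 6427, 6946, 5085 and 5359 in CA livers, against 4218, 3922, 3266, 2963 and 4286 in control livers. Both serve the breakdown of unsaturated fatty acids, and both rose without overlap (Eci1 0.84 ± 0.19, adjusted p = 0.0014, and Decr1 0.67 ± 0.14, adjusted p = 3.4e-04). A much dimmer probe set of Eci1, with means of 26.1 in CA livers and 37.5 in control livers, stood at -0.32 and did not pass. Acadl, Acads, Acaa2, Hadha and Hadhb, of the main spiral of oxidation, rose by 0.47 to 0.55, and each lost its call when 1 rat was left out. For Acadl this was an adjusted p up to 0.14 without rat 4139 or 4031, for Acads adjusted p up to 0.29 without rat 4140 or 4141, and for Acaa2 adjusted p up to 0.070 without rat 4138, 4139, 4141, 4030 or 4031. For Hadha and Hadhb, both subunits of the trifunctional protein, it was adjusted p up to 0.14 without rat 4138, 4139, 4140, 4028, 4030 or 4031 and adjusted p up to 0.15 without rat 4138, 4139, 4140, 4029, 4030 or 4031. Only Cpt1a, Cpt1b, Decr1 and Eci1 of this list passed whichever rat was left out, and 5 calls were left without CA rat 4139 or control rat 4031. The list median of CA rat 4141 was -0.026, against 0.22 to 0.44 in the other 3 CA rats.

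Of 27 tested peroxisomal genes 5 were higher and 0 lower (18.5%, against 8.35% of all genes), with 2 of them (Ehhadh and Acot8) passing whichever rat was left out. Ehhadh, the bifunctional enzyme of peroxisomal oxidation, had 10021, 11058, 8694 and 10401 in CA livers, against 4546, 4557, 2455, 2299 and 2907 in control livers. All CA livers lay above all control livers (log2 fold change 1.63 ± 0.23, adjusted p = 2.7e-08). Acot8, a peroxisomal thioesterase, averaged 484 ± 95.2 in CA livers and 194 ± 52.6 in control livers (SD, n = 4 and 5; log2 fold change 1.23 ± 0.23, adjusted p = 5.6e-05). Nudt7 rose by 0.62, Pex19 by 0.47 and Crot by 1.03, with calls that depended on single rats (Nudt7 adjusted p up to 0.067 without rat 4139, 4140, 4028 or 4037; Pex19 adjusted p up to 0.15 without rat 4138, 4139 or 4031; Crot adjusted p up to 0.29 without rat 4138, 4139, 4141 or 4029). Control rat 4029 had a Crot signal of 348, against 1500 to 1619 in the other controls. Another probe set of Crot rose by 1.27 and passed (adjusted p = 0.010). Cat, catalase, stood at 0.30 and Ppara at 0.47 ± 0.37, adjusted p = 0.52, so neither passed.

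Cyp4a1, an omega-hydroxylase used as a marker of fibrate exposure, had 7474, 7185, 6599 and 7114 in CA livers, against 4967, 3546, 3324, 3018 and 3604 in control livers. It rose without overlap (log2 fold change 0.96 ± 0.18, adjusted p = 5.8e-05), opposite to Cyp4a8. Acsl3, an acyl-CoA synthetase of lipid droplets, averaged 231 ± 67.6 in CA livers and 62.6 ± 12.8 in control livers (log2 fold change 1.52 ± 0.25, adjusted p = 3.3e-06). Of the 14 tested genes of fatty acid hydroxylation and activation, 4 were higher and 1 lower (35.7%, against 8.35% of all genes), and Acsm2 (1.02 ± 0.31) lost its call without CA rat 4138 or 4141 or control rat 4030 (adjusted p up to 0.1).

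Fatty acid uptake, lipid droplet and ketone genes had 9 higher and 4 lower of 30 tested (43.3%, against 8.35% of all genes). Lpl, lipoprotein lipase, which is low in adult liver, had 152, 198, 245 and 198 in CA livers, against 88.3, 108, 69.98, 64.8 and 70.2 in control livers. The CA livers stood above the controls (log2 fold change 1.08 ± 0.23, adjusted p = 5.0e-04). Angptl4, an inhibitor of that lipase and a PPARalpha target in fasting, had 475, 285, 219 and 285 in CA livers, against 681, 866, 577, 599 and 558 in control livers. It fell without overlap (log2 fold change -1.03 ± 0.26, adjusted p = 0.0038). Fabp5, a fatty acid binding protein, averaged 642 ± 134 in CA livers and 197 ± 14.7 in control livers (log2 fold change 1.56 ± 0.26, adjusted p = 3.3e-06), and Cidea, which makes lipid droplets grow, averaged 1012 ± 181 in CA livers and 296 ± 216 in control livers (log2 fold change 1.90 ± 0.35, adjusted p = 2.6e-05). The glycerol channels differed, since Aqp7 rose by 1.22 ± 0.19, adjusted p = 3.4e-07, while Aqp9, the main glycerol channel of hepatocytes, fell (-0.83 ± 0.22, adjusted p = 0.0082).

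Pdk4, the kinase that shuts pyruvate out of oxidation and a target of PPARalpha, measured 280.2, 199, 273 and 240.1 in CA livers, against 733, 549.8, 632, 436 and 439.9 in control livers. All CA livers lay below all controls (log2 fold change -1.08 ± 0.29, adjusted p = 0.0073). Fgf21, a liver hormone of fasting, measured 937, 386, 1307 and 819 in CA livers, against 500.4, 359, 170.5, 165 and 176 in control livers. Overlap came from CA rat 4139, which lay below control rat 4028, and the gene passed (log2 fold change 1.58 ± 0.43, adjusted p = 0.0090) except without CA rat 4140 (adjusted p = 0.063). Slc27a2, a fatty acid transporter, rose by 0.54 (adjusted p = 0.082 without CA rat 4141). Dbi, the acyl-CoA binding protein, rose by 0.55 (adjusted p up to 0.12 without rat 4138 or 4139). Cd36 stood at 0.45 ± 0.33, adjusted p = 0.48 and Fabp1 at 0.51 ± 0.18, adjusted p = 0.059, so neither passed.

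At the settings used here, called genes of lipogenesis were all higher. Of 25 tested genes 11 were higher (44%, against 4.89% of all genes) and 0 were lower, and the median log2 fold change was 0.62 (0.25 without scaling and 0.63 after quantile normalization). Some other settings also gave lower calls. These were 12 higher and 2 lower after quantile normalization, 15 and 2 with array weights, 12 and 2 with rat 4137, and 11 and 1 without control rat 4028. Each CA rat had a list median above the control mean (0.34 to 0.75, highest in rat 4139), against -0.072 to 0.17 in control rats. With 1 rat left out, Scd2, Me1, Fads2, Srebf1, Fasn and Thrsp always passed, and 8 calls were left without CA rat 4139 or control rat 4029. Srebf1, the transcription factor of this route, had 2576, 4162, 2991 and 4019.9 in CA livers, against 602, 339.5, 808, 897 and 1442 in control livers. All CA livers lay above all controls (log2 fold change 2.16 ± 0.34, adjusted p = 5.1e-07).

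Me1, malic enzyme, which supplies NADPH, was 1131, 1433, 959.7 and 872 in CA livers, against 287, 347, 278, 263 and 246 in control livers. It was 3.59-fold higher without overlap (log2 fold change 1.85 ± 0.21, adjusted p = 7.7e-12). Fads2, the delta-6 desaturase, was 4496, 5931, 4662 and 3837 in CA livers, against 1249, 938, 1143, 1263 and 1453 in control livers. It was 3.84-fold higher (log2 fold change 1.94 ± 0.24, adjusted p = 4.2e-10). Fasn, fatty acid synthase, was 642, 976, 706 and 614 in CA livers, against 222, 176, 294, 277 and 264 in control livers. It rose without overlap (log2 fold change 1.48 ± 0.33, adjusted p = 8.0e-04), and its other probe set rose by 0.83. Thrsp, a thyroid hormone responsive lipogenic protein, averaged 3769 ± 1169.5 in CA livers and 1500.0 ± 469 in control livers (log2 fold change 1.32 ± 0.32, adjusted p = 0.0021).

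Smaller rises of other called genes of lipogenesis depended on single rats. Acaca had an adjusted p up to 0.099 without rat 4141 or 4029, and Acacb up to 0.059 without rat 4029. Elovl6 had an adjusted p up to 0.11 without rat 4138 or 4139, and Dgat1 up to 0.13 without rat 4139 or 4031. Acly had an adjusted p up to 0.28 without rat 4138, 4139, 4140, 4028, 4029 or 4030. Another probe set of Acaca stood at 0.26 and did not pass. Scd, the main desaturase of adult liver, measured 6619, 6798, 5190.4 and 6821 in CA livers, against 4949, 769, 3417, 3085 and 4412 in control livers. All CA values lay above all controls, yet the gene did not pass (log2 fold change 1.15 ± 0.42, adjusted p = 0.068). Control rat 4029 was far below the other controls, and its part in the fold change of Scd was not tested. Lpin1, a phosphatidate phosphatase, stood at 1.30 ± 0.48, adjusted p = 0.077.

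Sterol synthesis and uptake had 5 genes higher and 1 lower of 20 tested (30%, against 8.35% of all genes), with a median log2 fold change of 0.065 (-0.26 without scaling and 0.085 after quantile normalization). Insig1, which holds the SREBP complex in the endoplasmic reticulum, had 1445, 5916, 2257 and 2119 in CA livers, against 526, 646, 730.3, 581 and 684 in control livers. CA rat 4139 was far above the other 3, and the groups did not overlap (log2 fold change 1.97 ± 0.33, adjusted p = 3.2e-06). Pmvk, of the mevalonate route, rose by 0.87 ± 0.20, adjusted p = 0.0013. Fdps rose by 1.22 ± 0.34 (adjusted p up to 0.071 without rat 4139), Lss by 0.44 ± 0.14 (adjusted p up to 0.19 without rat 4138, 4139, 4141, 4028 or 4030) and Fdft1 by 0.79 ± 0.26 (adjusted p up to 0.12 without rat 4138, 4139, 4140, 4028, 4030 or 4031). Another probe set of Fdft1 rose by 0.65 and passed, while another of Lss stood at 0.29 and did not pass. Sc5d fell by 0.49, passed only in the fit without CA rat 4139 when single rats were left out, and its other probe set stood at 0.089.

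Of 16 tested lipoprotein genes 5 were lower (31.2%, against 3.46% of all genes), 0 were higher and 11 did not pass, with a median log2 fold change of -0.24 (-0.61 without scaling and -0.39 after quantile normalization). The count of lower genes was 11 of 16 after quantile normalization and 7 with rat 4137 included. Apom, a carrier of sphingosine phosphate in HDL, had 1129.7, 1406, 870.0 and 954 in CA livers, against 2374, 2318, 2573, 2425 and 2987 in control livers. It fell without overlap (log2 fold change -1.22 ± 0.20, adjusted p = 3.5e-06). Abcg5, a sterol exporter to bile, had 126, 108, 113 and 78.8 in CA livers, against 158, 501, 399, 276 and 368 in control livers. It fell too (log2 fold change -1.40 ± 0.25, adjusted p = 1.6e-05), and its partner Abcg8 fell by 0.78 (adjusted p up to 0.069 without rat 4141, 4029 or 4030). Scarb1, the HDL receptor, fell by 0.56 (adjusted p up to 0.18 without rat 4138, 4140, 4141, 4029 or 4037), and its other probe set by 0.64. Apoa1, the main HDL protein, stood at 0.035 ± 0.22, adjusted p = 0.96 and changed sign with the scaling (-0.35 without it, -0.21 after quantile normalization).

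Of 18 tested bile acid genes 2 were higher and 1 lower (16.7%, against 8.35% of all genes), and the median log2 fold change was -0.0023 (-0.37 without scaling and -0.13 after quantile normalization). With rat 4137 included the median was -0.24, with 2 higher and 2 lower. Slc27a5, the ligase that prepares bile acids for conjugation, had 2700.3, 2214, 1820.3 and 2349.6 in CA livers, against 5538, 6496, 6362, 5759.9 and 6648 in control livers. It was 2.71-fold lower (log2 fold change -1.44 ± 0.19, adjusted p = 3.7e-09). Cyp27a1, the sterol 27-hydroxylase, measured 6891, 7474, 7073 and 8230.2 in CA livers, against 4634, 4059, 3654, 3056 and 4299.7 in control livers. It rose without overlap (log2 fold change 0.92 ± 0.16, adjusted p = 4.2e-06). Nr0b2, the corepressor SHP, averaged 1186 ± 288 in CA livers and 429 ± 421 in control livers (log2 fold change 1.80 ± 0.43, adjusted p = 0.0021), with control rat 4029 inside the CA range. Cyp7a1, the rate-limiting enzyme of bile acid synthesis, had 543, 797, 489 and 421 in CA livers, against 282, 279.9, 310.4, 309 and 201 in control livers. The groups did not overlap, but the gene missed the threshold (log2 fold change 0.94 ± 0.34, adjusted p = 0.068).

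**Figure D3:**
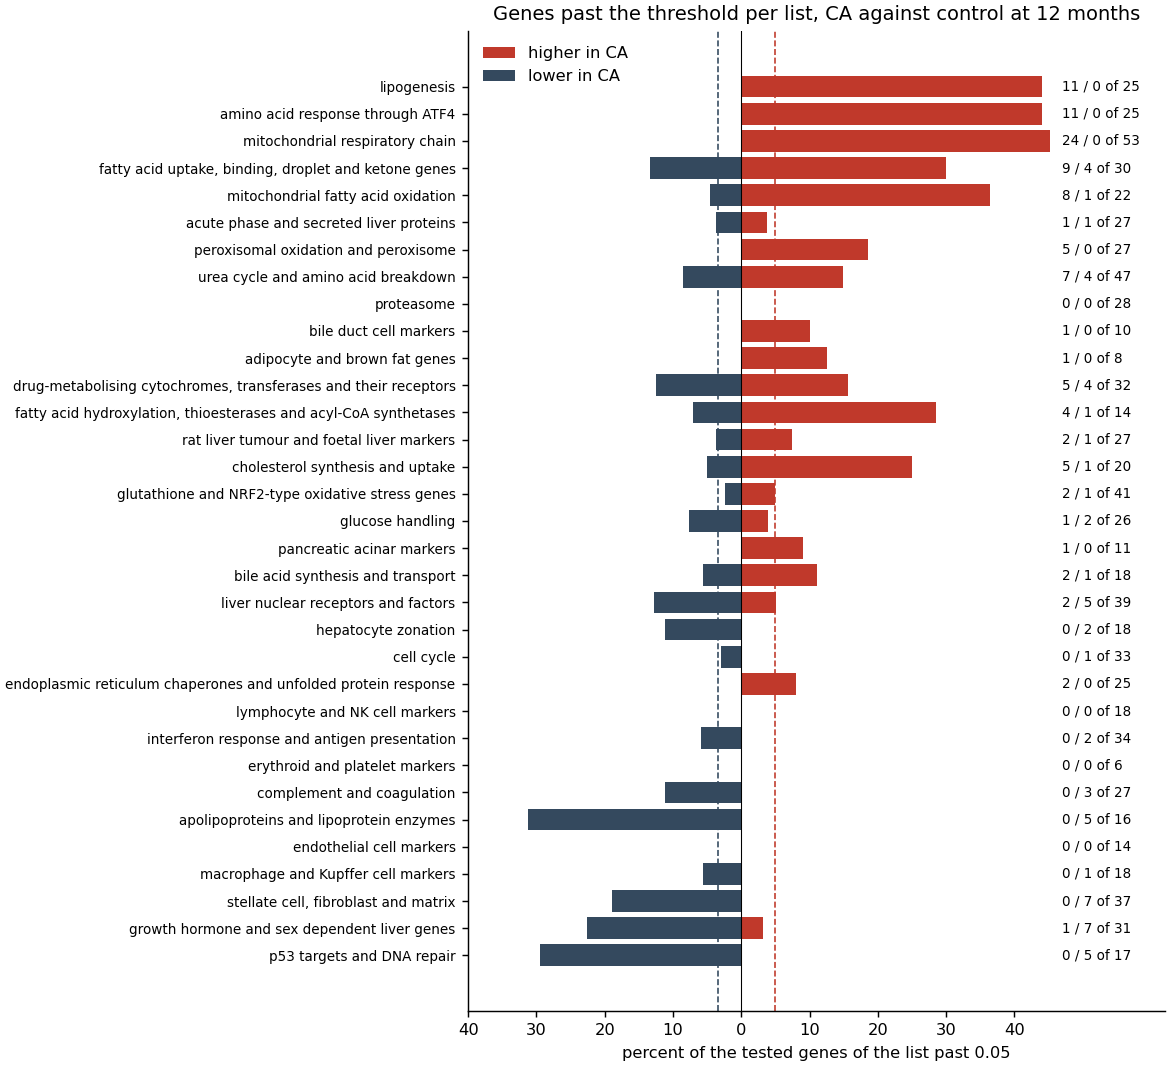
Share of the tested genes of each list that passed an adjusted p of 0.05, higher in CA livers to the right in red and lower to the left in dark, ordered by the median log2 fold change of the list. Dashed lines mark the shares over all tested genes (4.89% higher and 3.46% lower), and the text at the right gives higher and lower counts of the genes tested.

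Of 53 tested subunits of the mitochondrial respiratory chain 24 were higher (45.3%, against 4.89% of all genes), 0 were lower and 29 did not pass, and the median log2 fold change was 0.45 (0.081 without scaling and 0.34 after quantile normalization). Cox4i1, a subunit of cytochrome oxidase, had 7587, 8339.9, 6448 and 8523 in CA livers, against 4717, 4867, 4271, 4053 and 4784 in control livers. All CA livers lay above all controls (log2 fold change 0.76 ± 0.13, adjusted p = 5.3e-06). Atp5f1b, the beta subunit of ATP synthase, rose by 0.73 ± 0.14, adjusted p = 1.1e-04, Uqcrc1, of complex III, by 0.70 ± 0.13, adjusted p = 6.1e-05, Sdhb, of complex II, by 0.72 ± 0.17, adjusted p = 0.0019, and Ndufb9, of complex I, by 0.61 ± 0.14, adjusted p = 0.0010.

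The size of this change rested on the scaling and on single rats. With no scaling, 0 of the 53 passed, while after quantile normalization 37 did. The list median was 0.66 in CA rat 4139 and 0.33 to 0.47 in the other 3 CA rats, against -0.14 to 0.17 in control rats. Without CA rat 4139, 12 genes passed, and 12 passed whichever rat was left out. These genes are bright, and the 874 brightest of all genes had a median of 0.090; its part in this result was not tested. Proteasome subunits, another set of housekeeping genes, had 0 of 28 past the threshold (against 8.35% of all genes). Their median log2 fold change was 0.18 (-0.19 without scaling and 0.17 after quantile normalization).

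Among 39 nuclear receptors and liver transcription factors 2 were higher and 5 lower (17.9%, against 8.35% of all genes). Ppard, the widely expressed relative of PPARalpha, rose by 0.63 ± 0.18 (adjusted p up to 0.070 without rat 4139 or 4029), and Nr0b2, above, was the other higher one. Nr1d1, Nr1d2 and Esr1, described below, passed as lower whichever rat was left out. Foxa3 fell by 0.66 (adjusted p up to 0.11 without rat 4138, 4140, 4141, 4028, 4029 or 4030) and Prox1 by 0.57 (adjusted p up to 0.14 without rat 4138, 4141 or 4030). Hnf4a (-0.23), Rxra (-0.37) and Nr1h3 (0.38) did not pass. Of 18 genes of hepatocyte zonation 2 were lower and 0 higher (11.1%, against 8.35% of all genes). Of 26 genes of glucose handling 1 was higher and 2 lower (11.5%).

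Urea cycle and amino acid breakdown genes had 7 higher and 4 lower of 47 tested (23.4%, against 8.35% of all genes), and Hdc, Oat and Inmt, described above, were the 3 that passed whichever rat was left out. Cth, cystathionine gamma-lyase, rose by 0.64 ± 0.17, adjusted p = 0.0084 (adjusted p = 0.062 without CA rat 4139). Csad, of taurine synthesis, rose by 0.86 ± 0.26 (adjusted p up to 0.11 without rat 4139, 4030, 4031 or 4037), Bckdha, of branched-chain oxidation, by 0.74 ± 0.23 (adjusted p up to 0.15 without rat 4138, 4139, 4028, 4030 or 4031), and Tat, tyrosine aminotransferase, by 1.24 ± 0.39 (adjusted p up to 0.15 without rat 4139, 4140, 4030, 4031 or 4037). Acmsd, of tryptophan breakdown, fell by 0.77 (adjusted p up to 0.14 without rat 4138, 4139, 4141, 4028, 4030 or 4037), and Ftcd, of histidine breakdown, fell by 0.50 (adjusted p up to 0.10 without rat 4138, 4140, 4141, 4029 or 4030). Genes of the urea cycle itself did not pass, among them Cps1 (0.36), Otc (0.38), Ass1 (0.43), Asl (-0.40) and Arg1 (0.092).

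Called growth hormone and sex dependent genes were mostly lower. Of 31 tested 7 were lower and 1 higher (25.8%, against 8.35% of all genes), and the median log2 fold change was -0.39 (-0.58 without scaling and -0.33 after quantile normalization). This median depended on the offset, at -0.55 with an offset of 6 and -0.17 with 99, while the calls stayed at 7 lower and 1 higher. With the filter at the 70th percentile it was -0.21. Besides Obp3, Cyp3a9, a steroid-metabolising cytochrome, had 136, 137, 133 and 135 in CA livers, against 631, 1152, 746, 786 and 628 in control livers. It was 4.96-fold lower (log2 fold change -2.31 ± 0.39, adjusted p = 3.3e-06). Esr1, the oestrogen receptor alpha, had 14.7, 41.8, 12.05 and 33.8 in CA livers, against 102, 69.6, 107, 140.3 and 108 in control livers. The groups did not overlap, with CA livers lower (log2 fold change -1.39 ± 0.30, adjusted p = 6.1e-04).

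Igfals, which holds IGF in the serum complex, had 848, 1015, 1003 and 828 in CA livers, against 1267, 1544, 1729.7, 1737 and 1752 in control livers. It fell without overlap (log2 fold change -0.78 ± 0.20, adjusted p = 0.0052). Igfbp1, a carrier that insulin lowers, measured 2786, 1318, 2969 and 2052 in CA livers, against 931, 1772, 475, 329 and 304 in control livers. It rose, with control rat 4029 above CA rat 4139 (log2 fold change 1.80 ± 0.48, adjusted p = 0.0068). Igf1 fell by 0.56 (adjusted p up to 0.14 without rat 4138, 4140, 4141 or 4037), with another probe set at -0.28 that did not pass. Igfbp3 fell by 0.62 (adjusted p up to 0.066 without rat 4140, 4141 or 4029), and its other probe set fell by 0.91 and passed. Socs3 fell by 0.61 (adjusted p up to 0.17 without rat 4139, 4141, 4028, 4030 or 4037). Socs2 (-0.77), Cish (-1.11), Cyp2c11 (-0.047) and Cyp2c12 (-1.01) did not pass.

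Of 32 tested drug-metabolising genes 5 were higher and 4 lower (28.1%, against 8.35% of all genes), and 23 did not pass. This balance depended on the setting. With rat 4137 included 4 were higher and 8 lower, after quantile normalization 4 and 6, and without scaling 0 and 2. Cyp2j4, an epoxygenase, averaged 1538 ± 139 in CA livers and 695 ± 165 in control livers (log2 fold change 1.14 ± 0.18, adjusted p = 8.4e-07), and Ces2c, a carboxylesterase, averaged 845 ± 90.8 in CA livers and 373 ± 106 in control livers (log2 fold change 1.16 ± 0.23, adjusted p = 1.1e-04). Lower were Cyp2f4, at 340.4 ± 99.7 in CA livers and 914 ± 123 in control livers (log2 fold change -1.39 ± 0.24, adjusted p = 5.8e-06), and Fmo1, a flavin monooxygenase, at 1049 ± 128 in CA livers and 2206 ± 394 in control livers (log2 fold change -1.04 ± 0.28, adjusted p = 0.0081). Cyp17a1 and Cyp2c22 rose by 1.20 and 0.69, with calls lost without 1 rat (for Cyp17a1 an adjusted p up to 0.074 without rat 4139; Cyp2c22 adjusted p up to 0.060 without rat 4141). Of 41 glutathione and oxidative stress genes 2 were higher and 1 lower (7.32%, against 8.35% of all genes). Nfe2l2, which encodes NRF2, was the lower one, at 447, 430.1, 389 and 477 in CA livers, against 740.1, 696, 729.9, 759 and 823 in control livers. Its groups did not overlap (log2 fold change -0.75 ± 0.19, adjusted p = 0.0039). Gpx2 rose by 0.73 ± 0.20, adjusted p = 0.010, and Akr7a3 by 1.04 ± 0.31 (adjusted p up to 0.11 without rat 4141 or 4028), while Nqo1 (0.020), Gclm (0.019) and Hmox1 (-0.030) did not pass.

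Complement and coagulation genes had 3 lower of 27 tested (11.1%, against 3.46% of all genes), C1s, C1r and Klkb1 (plasma prekallikrein, which fell by 0.56; adjusted p up to 0.12 without rat 4139, 4140, 4141, 4028, 4030 or 4037), and 0 higher. The median log2 fold change was -0.22 (-0.58 without scaling and -0.27 after quantile normalization). The count of lower genes was 11 of 27 after quantile normalization and 6 with rat 4137 included. Of acute phase and secreted liver proteins 2 of 27 passed (7.41%, against 8.35% of all genes), and Serpina4, kallistatin, was the lower one, at 3306, 4596, 3134 and 3864 in CA livers, against 7391, 6821, 6666, 6149 and 7622 in control livers. Its groups did not overlap (log2 fold change -0.90 ± 0.15, adjusted p = 1.9e-06). Serpina7, thyroxine-binding globulin, was the higher one (1.58 ± 0.44, adjusted p = 0.011; adjusted p up to 0.060 without rat 4030). Alb, albumin, stood at 0.50 ± 0.23, adjusted p = 0.19.

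Stellate cell and matrix genes had 7 lower and 0 higher of 37 tested (18.9%, against 3.46% of all genes), and the median log2 fold change was -0.30 (-0.61 without scaling and -0.31 after quantile normalization). Cxcl12, a chemokine that many liver cells make, had 719, 801, 569.8 and 575 in CA livers, against 2376, 2994, 3206, 2773 and 3169 in control livers. It was 4.26-fold lower (log2 fold change -2.09 ± 0.18, adjusted p = 4.3e-19), and 2 further probe sets fell by 1.29 and 2.04. Il33, an alarmin of the IL-1 family, had 227, 243, 210.2 and 160.4 in CA livers, against 823, 458, 957, 793 and 1015 in control livers. Every CA liver lay below the lowest control (log2 fold change -1.79 ± 0.26, adjusted p = 8.0e-08). Reln, a secreted glycoprotein of stellate cells, fell by 0.57 (adjusted p = 0.0086), with another probe set at -0.49 that did not pass. Cxcl12, Il33, Nrep and Reln passed whichever rat was left out, while Bgn, a matrix proteoglycan (-0.83; adjusted p up to 0.052 without rat 4141), Mmp14 (-0.59; adjusted p up to 0.21 without rat 4138, 4141 or 4028) and Timp3 (-0.54; adjusted p up to 0.21 without rat 4138, 4139, 4140, 4141, 4030 or 4037) lost their calls. Collagens and vimentin did not pass, with Col1a1 at 0.16, Col3a1 at -0.29, Col1a2 at -0.33 and Vim at -0.30. The 5 stellate markers above summed lower in CA livers with overlap, and their part in these changes was not tested.

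Immune genes gave single calls. Cd14, a lipopolysaccharide co-receptor of macrophages and hepatocytes, was 633, 512, 428 and 496 in CA livers, against 1340.4, 1515, 1421, 1332 and 1519 in control livers. It was 2.70-fold lower (log2 fold change -1.43 ± 0.22, adjusted p = 2.9e-07). Cd14 was the 1 of 18 macrophage markers that passed (5.56%, against 8.35% of all genes), and Clec4f (-0.46), Cd68 (-0.14) and Csf1r (-0.036) did not. Lymphocyte and NK cell markers had 0 of 18 past the threshold (against 8.35% of all genes). Ifitm3, an interferon-induced membrane protein, was 1003, 814, 627 and 676 in CA livers, against 3258, 2217, 2365, 2411 and 2746 in control livers. It fell without overlap (log2 fold change -1.71 ± 0.22, adjusted p = 1.7e-09). Of 34 genes of interferon response and antigen presentation 2 were lower and 0 higher (5.88%, against 8.35% of all genes). The other lower gene, Irf1, depended on single rats (adjusted p up to 0.12 without rat 4138, 4139, 4141, 4028 or 4029). Interferon genes such as Mx1 (0.10), Ifit1 (0.27) and Irf7 (-0.37) did not pass. Endothelial markers had 0 of 14 called, erythroid and platelet markers 0 of 6, bile duct markers 1 of 10 (Epcam) and pancreatic acinar markers 1 of 11 (Cela1). Over all genes 8.35% were called, so counts of 0 or 1 in lists this small do not set these cell types apart.

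**Figure D4:**
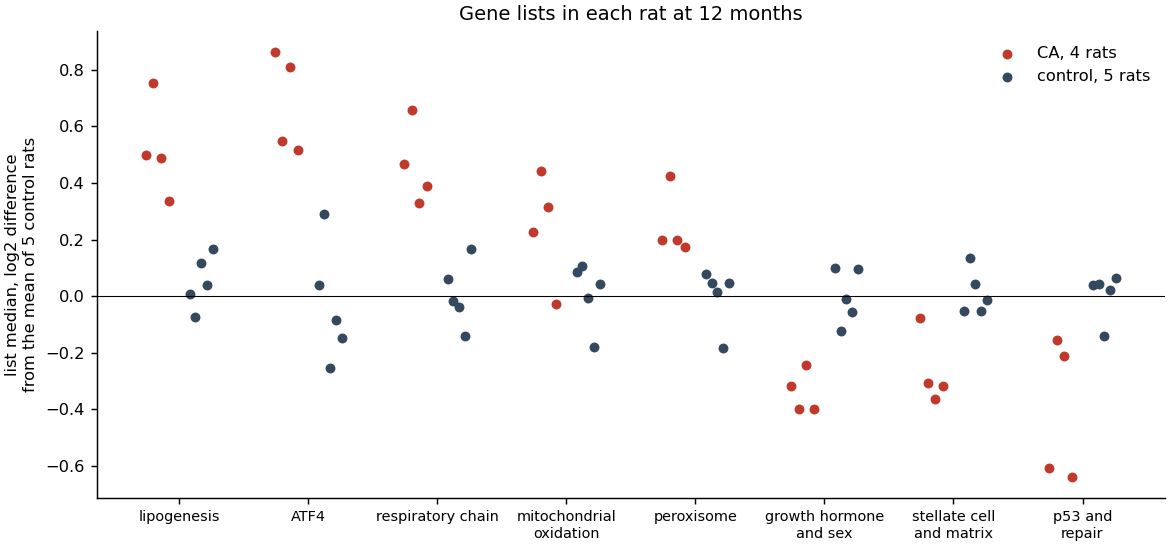
Median log2 difference from the mean of the 5 control rats over the tested genes of 8 lists, 1 point per liver, with the 4 CA rats in red left of the 5 control rats in dark. CA rat 4139 is highest for lipogenesis (0.75) and the respiratory chain (0.66), CA rat 4141 lies at -0.026 for mitochondrial oxidation, and control rat 4029 lies at 0.29 for the amino acid response.

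Called genes of p53 action and DNA repair were all lower. Of 17 tested 5 were lower and 0 higher (29.4%, against 3.46% of all genes), and the median log2 fold change was -0.56 (-0.88 without scaling and -0.56 after quantile normalization). Phlda3, an inhibitor of AKT induced by p53, had 73.5, 56.9, 59.8 and 128 in CA livers, against 341, 236, 229, 279 and 324 in control livers. No CA liver reached the control range (log2 fold change -1.58 ± 0.21, adjusted p = 4.5e-09). Ccng1, cyclin G1, had 179, 194, 142 and 159 in CA livers, against 428, 311, 332, 389.9 and 437 in control livers. It fell too (log2 fold change -1.06 ± 0.15, adjusted p = 1.8e-08). Mgmt, which repairs O6-methylguanine, fell by 0.74 (adjusted p = 0.0031), and Nhej1, of end joining, fell by 0.72 (adjusted p = 0.0019). Plk2 fell by 0.73 (adjusted p up to 0.20 without rat 4138, 4141, 4031 or 4037). Cdkn1a, which encodes p21, stood at -0.56 ± 0.24, adjusted p = 0.16, while its other probe set fell by 0.92 (adjusted p = 0.015), so its probe sets disagree on the call.

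Cell cycle genes had 1 of 33 past the threshold (3.03%, against 8.35% of all genes). That gene, Ccnd1, cyclin D1, was 219, 131, 195 and 156 in CA livers, against 224, 662, 628, 496 and 298 in control livers. It fell without overlap (log2 fold change -1.19 ± 0.26, adjusted p = 5.5e-04), with other probe sets at -1.33, which passed, and -0.73, which did not. Mki67 (-0.21), Top2a (-0.077), Cdk1 (-0.14) and Pcna (-0.24) did not pass. Of 27 tumour and foetal liver markers 2 were higher and 1 lower (11.1%, against 8.35% of all genes). Epcam, an adhesion molecule of bile ducts and progenitor cells, had 359, 487, 363 and 350.1 in CA livers, against 150.4, 185, 175, 181 and 230.3 in control livers. It rose without overlap (log2 fold change 0.98 ± 0.14, adjusted p = 4.5e-08). Krt19 and Krt7, which define bile duct cells, were at 38.8 or lower in CA livers and at 50.1 or lower in control livers. Gstp1, the classical marker of rat liver foci, stood at -0.17 ± 0.25, adjusted p = 0.78, and Afp, alpha-fetoprotein, at 0.17 ± 0.22, adjusted p = 0.73 (-0.18 without scaling). Neither passed.

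Whether the effect at 12 months differed from that at the other 5 times was tested as the CA effect at 12m less the mean of the CA effects at 5j, 1m, 3m, 9m and 18m. Of 12379 probe sets 16 passed (0.129%), 4 with a more positive and 12 with a more negative effect at 12m, and 956 had an unadjusted p under 0.05. Calls fell to 6 without CA rat 4141. For the remaining probe sets no difference from the other times was shown. Hdc had log2 fold changes of 3.87 at 5j, 4.54 at 1m, 4.32 at 3m, 4.03 at 9m and 3.57 at 18m, beside 3.51 at 12m. Cyp4a8 had -1.12 at 5j, -1.48 at 1m, -2.06 at 3m, -2.96 at 9m and -3.60 at 18m, beside -3.21 at 12m, and Apoa4 had -4.22 at 5j, -5.61 at 1m, -4.16 at 3m, -4.02 at 9m and -4.19 at 18m, beside -4.14.

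Of the 16, Nr1d1, Per1 and Usp2 are genes with a daily rhythm. Nr1d1, a nuclear receptor (REV-ERBalpha) that represses clock genes, had 27.6, 51.5, 59.3 and 62.9 in CA livers, against 176, 278, 240.4, 160.4 and 246 in control livers. It fell at 12m (log2 fold change -1.71 ± 0.32, adjusted p = 4.5e-05), against 0.61 at 5j, 0.41 at 1m, -0.38 at 3m, -0.27 at 9m and -0.19 at 18m (difference -1.74 ± 0.35, adjusted p = 0.0056). This difference held under every alternative setting. Per1, a clock repressor, had 124, 154, 173 and 158 in CA livers, against 49.2, 83.5, 23.8, 40.4 and 95.2 in control livers. The groups did not overlap, yet the effect at 12m missed the threshold (log2 fold change 1.16 ± 0.41, adjusted p = 0.063), while it differed from that of -1.62 at 5j, -0.81 at 1m, -0.63 at 3m, -0.12 at 9m and -0.54 at 18m (difference 1.90 ± 0.45, adjusted p = 0.033; 8 of 19 alternative settings ended this call). Usp2, a ubiquitin protease with a daily rhythm, rose on the probe set that differed (1.51 ± 0.35, adjusted p = 0.0014; difference 1.77 ± 0.38, adjusted p = 0.010, ended by 4 of 19), while its brighter probe set stood at 0.90 ± 0.32, adjusted p = 0.059. Nr1d2, the relative of Nr1d1, fell by 1.00 (adjusted p = 0.0030), with 0.039 at 5j, 0.14 at 1m, -0.14 at 3m, 0.34 at 9m and -0.099 at 18m. Another probe set of Nr1d2 fell by 0.70 at 12m (adjusted p = 0.049). Bmal1 (0.0032), Clock (-0.15), Per2 (0.088) and Dbp (0.060) did not pass. The hour at which the rats were killed was not given in the sources used here. CA and hour cannot be told apart for these genes, nor for any other gene of this comparison that varies over the day.

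Further probe sets among the 16 were those of Aldh1a1, Pdk4, Cpt1a, Hsd17b2, Ccng1 and Wdr6. Aldh1a1, retinaldehyde dehydrogenase, had 2209, 2303, 1958 and 1364 in CA livers, against 2529.6, 2843, 2658, 2633 and 2908 in control livers. It did not pass at 12m (log2 fold change -0.49 ± 0.31, adjusted p = 0.40), against effects of 2.84 at 5j, 2.13 at 1m, 2.17 at 3m, 0.74 at 9m and 0.13 at 18m (difference -2.09 ± 0.34, adjusted p = 1.2e-04), and this difference held under every alternative setting. Pdk4 was lower at 12m, against 1.20 at 5j, 0.71 at 1m, 0.27 at 3m, -0.60 at 9m and -0.16 at 18m (difference -1.36 ± 0.31, adjusted p = 0.028; ended by 6 of 19 settings). The other probe set of Cpt1a had 1018, 1380.2, 1318 and 881 in CA livers, against 2359.9, 2523, 2596, 1923 and 2621 in control livers. Its effect of -1.06 ± 0.22, adjusted p = 2.0e-04 stood against 0.58 at 5j, 0.54 at 1m, -0.090 at 3m, -0.56 at 9m and -0.23 at 18m (difference -1.11 ± 0.24, adjusted p = 0.010; ended by 2 of 19). Hsd17b2 had 0.48 at 5j, -0.017 at 1m, -0.96 at 3m, -0.59 at 9m and -0.67 at 18m (difference -1.40 ± 0.29, adjusted p = 0.0076; ended by 2 of 19), Ccng1 had -0.033 at 5j, -0.10 at 1m, -0.14 at 3m, -0.65 at 9m and -0.61 at 18m (difference -0.75 ± 0.16, adjusted p = 0.010; ended by 6 of 19), and Wdr6, a WD repeat protein, rose by 0.82 ± 0.16, adjusted p = 7.0e-05 at 12m, against -0.68 at 5j, 0.0068 at 1m, 0.50 at 3m, -0.018 at 9m and 0.22 at 18m (difference 0.82 ± 0.17, adjusted p = 0.010; ended by 3 of 19).

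**Figure D5:**
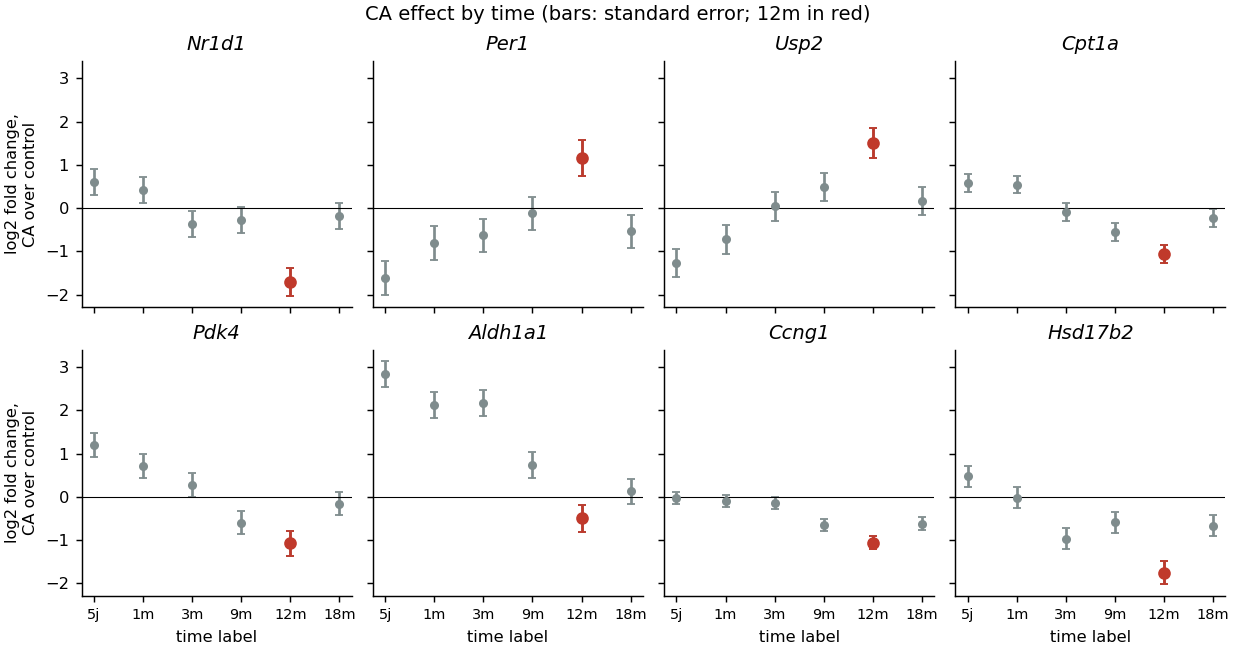
Log2 fold change of CA over control at each time label for 8 genes whose effect at 12m differed from the mean of the other times, with standard errors as bars and 12m in red; Cpt1a and Usp2 are shown by the probe sets that differed. Nr1d1, Cpt1a, Pdk4, Ccng1 and Hsd17b2 are lower at 12m, Per1 and Usp2 are higher, and Aldh1a1 is at -0.49 after effects above 2 at 5j, 1m and 3m.

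The same drug was given to rats that had received DEN, which gives a second test in other animals. DEN-CA against DEN at 12m called 676 of 8733 genes (7.74%), or 904 probe sets (7.3%). Of the 729 genes called in CA against control, 399 were also called in DEN-CA rats with the same direction, which is 54.7% of the CA calls and 59.0% of the DEN-CA calls, and 0 were called with the opposite direction. The difference of both effects had 0 of 12379 probe sets past 0.05 in limma, with 356 at an unadjusted p under 0.05, so no gene was shown to respond differently after DEN. Without CA rat 4139, 1 probe set passed.

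Values of leading genes stood side by side. Scd2 changed by 4.62 ± 0.31, adjusted p = 3.0e-26 in DEN-CA rats, beside 4.33 ± 0.33 in CA rats, and Apoa4 by -4.23 ± 0.22, adjusted p = 5.7e-36, beside -4.14 ± 0.23. Asns changed by 3.11 ± 0.25, adjusted p = 8.8e-21, beside 2.62 ± 0.26, Srebf1 by 1.73 ± 0.32, adjusted p = 2.4e-05, beside 2.16 ± 0.34, and Phlda3 by -1.39 ± 0.20, adjusted p = 3.5e-08, beside -1.58 ± 0.21. Nr1d1 also fell in DEN-CA rats (-1.63 ± 0.30, adjusted p = 2.9e-05), as did Nr1d2 (-1.03 ± 0.23, adjusted p = 0.0010). Of the 53 respiratory chain genes, 4 were called higher in DEN-CA rats, with a median of 0.23, beside 24 and 0.45 in CA rats. Over all genes, 7.74% were called in either direction in DEN-CA rats and 8.35% in CA rats. Cox4i1 rose there by 0.40 ± 0.12, adjusted p = 0.024, beside 0.76 ± 0.13, and Fasn by 1.03 ± 0.31, adjusted p = 0.023, beside 1.48 ± 0.33.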

How the data were processed

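Liver RNA of 176 sections was measured on 1-colour Affymetrix arrays, 1 array per section, made with MAS5 per the submitters' processing notes (version and settings not given in the sources used here). The values were deposited by the authors as linear intensity per probe set. Arrays were multiplied to a common median of 99.35, the median of array medians, 25 was added and log2 taken. Array medians before scaling ran from 25.35 to 187.25 over the series, and the number of arrays limits the precision.

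A probe set was kept where 3 or more arrays had it above their 40th percentile. One linear model over 147 untagged sections in 30 groups (117 residual degrees of freedom, rat 4137 left out) was fitted with limma 3.58.1 in R 4.3.3 (lmFit, eBayes with trend), and p-values were adjusted by Benjamini-Hochberg over all probe sets at 0.05. Of 15922 probe sets, 12783 had 1 gene symbol, 312 several and 2827 none. The symbols came from the platform annotation, updated through gene identifiers. Of 10411 genes with a probe set on the array, 8733 were tested, each by its brightest kept probe set. Promoters came from RefSeq GRCr8.

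Named genes were the 15 highest and 15 lowest called genes without overlap, up to 6 genes of smallest p per gene list (33 lists), 8 per side of each difference test, and a panel of fibrate, lipid and tumour genes. Further list genes that did not pass were added after their values were seen. The compared rats and the lists were chosen with earlier results of these data known. The labels give rats as separate animals, so p-values measure the spread between rats. Alternatives were other offsets, scalings and filters, array weights, a covariate, fewer groups, rat 4137 and single rats left out.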

Additional observations from a re-analysis of the deposited data

Results flagged for a closer look

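For 18 of 300 groups of values (6%) 1 rat lay far from the rest of its group by Dixon's test at the 95% level, where chance flags about 1 in 20 groups. Control rat 4029 was the rat in 6 of them. It was highest for Vnn1 (486, next 195), Phgdh (209.9, next 68.7), Psat1 (250.3, next 57.8), Csad (1382, next 764) and Akr7a3 (938, next 444), and lowest for Crot (348, next 1499.8). Other control rats stood apart for Cpt1a (rat 4031, 2445, next 3455), Cyp7a1 (rat 4037, 201, next 279.9), Cyp2c22 (rat 4028, 9403, next 6562), Nr1d2 (rat 4028, 141, next 245) and Ppara (rat 4030, 52.3, next 24.9).

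CA rat 4139 stood apart for Crot (2982, next 2299), Epcam (487, next 363) and Nrep (54.5, next 82.8). CA rat 4140 was lowest for Scd (5190.4, next 6619) and Selenos (597, next 746), CA rat 4141 for Vnn1 (884, next 1216) and CA rat 4138 for Cyp4a8 (44.3, next 50.4).

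The CA effect at 12m differed from the mean of the other 5 times on 16 probe sets by limma's test of that difference. Besides Aldh1a1 (-2.09), Nr1d1 (-1.74), Hsd17b2 (-1.40), Pdk4 (-1.36), the other probe set of Cpt1a (-1.11), Ccng1 (-0.75), Wdr6 (0.82), Usp2 (1.77) and Per1 (1.90), described in the report, these were Abhd2 (-1.29), Trib1 (-1.24), Arf2 (-0.85), Abhd11 (-0.56), Slc6a6 (1.24) and 2 probe sets with no gene name, at -1.46 and -1.43. The Trib1 signals were 25.7 or lower in CA livers.

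Outside the sections compared, Cdkn2a was at 75.5 in the untagged section of CA rat 4137 and at 49.8 in the TUM section of CA rat 4141, against 6.28 as the highest control value.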

How the results depend on the processing

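The 982 probe sets called for CA against control became 235 with no scaling, 1484 after quantile normalization, 1679 with array weights and 217 at 2-fold or more, and stayed between 921 and 1444 under 8 other settings (offsets of 6 and 99, no filter, 2 other filters, the B suffix of some titles as a covariate, with rat 4137, and the 2 groups of 12m alone). With no scaling the median gene stood at -0.30, and the calls were 20% higher, against 56.5% higher with scaling. Leaving out 1 rat gave 667 (CA rat 4141) to 906 (control rat 4029) calls, of which 46.1% (without CA rat 4139) to 63.6% (without CA rat 4141) were higher.

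The 16 differences from the other times became 3 with no scaling, 43 after quantile normalization, 70 with array weights and 29 with rat 4137, and 6 (without CA rat 4141) to 16 with 1 rat left out. The counts without CA rat 4139 or 4140 or control rat 4028 or 4037 were 10. The 0 differences between CA and DEN-CA effects stayed 0 except for 1 probe set without CA rat 4139.

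Of 136 called genes named here, 89 kept the call in all 9 fits without 1 rat. With rat 4137, 11 of the genes lost it: Acads (adjusted p = 0.051), Acaa2, Hadhb, Crot, Acsm2, Fgf21, Dbi, Tat, Igfbp3, Timp3 and Foxa3 (0.20 at most, for Timp3), and Per1 gained it (0.017). With no scaling 78 lost it. Apoa1, which never passed, turned to -0.35 with no scaling, -0.21 after quantile normalization, and to -0.074, -0.037, -0.020 and -0.017 without CA rat 4139, CA rat 4141, control rat 4029 and control rat 4030 (range -0.074 to 0.18 over the 9 rats left out). Afp turned to -0.18 with no scaling. The causes were not tested. No paired analysis was possible because the rat numbers of both groups differ throughout.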
